A study of Mus musculus with 19 samples.

Results

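The 8 genes described here encode complement factors and the receptors through which myeloid cells sense complement fragments and formylated peptides. They were chosen by name from the 33559 rows of the deposited gene table, and all 8 had a row: the factors C3, Cfb and Cfp, the complement receptors C3ar1, C5ar1 and C5ar2, and the formyl peptide receptors Fpr1 and Fpr2. The libraries were bulk RNA-seq of wild-type mouse bone marrow monocytes, 3 with G-CSF (G-CSF replicates 1 to 3) and 2 with no treatment (control replicates 1 and 2). G-CSF is the cytokine that drives granulocyte production and releases myeloid cells from the marrow. The labels give neither the strain, the age, the dose and duration of G-CSF, nor whether it was given to animals or cells, and they do not state how the monocytes were isolated. The series holds a further 14 single-cell samples of wild-type and Cxcr2 KO skin, which were not analysed here.

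Complement is a cascade of plasma proteins in which C3 is cleaved to C3b, which coats targets, and to the small anaphylatoxin C3a, while C5 further down yields C5a. In the alternative pathway, factor B (Cfb) joins C3b to form the enzyme that cleaves more C3, and properdin (Cfp), which is made largely by myeloid cells, holds that enzyme together. C3a is sensed by C3ar1 and C5a by C5ar1, both G protein-coupled receptors, whereas C5ar2 binds C5a without activating G proteins. Fpr1 and Fpr2 belong to the same receptor class and recognise N-formylated peptides released by bacteria and damaged mitochondria, and Fpr2 also binds serum amyloid A and annexin A1. These receptors direct monocytes and neutrophils to sites of infection and injury.

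Levels are given in FPKM, which divides the fragments of a gene by its length and by a scaling factor of the library, so that genes of different length can be compared. Whole reads recovered from the FPKM steps numbered 5911053 to 6988613 in the G-CSF libraries, against 5981813 and 2923782 in control replicates 1 and 2. Control replicate 2 stood apart: it had the fewest recovered reads, yet 87.7% of the rows of the table were above 0 in it, against 72.6% to 77.7% in the G-CSF libraries and 76.3% in control replicate 1. The 10 genes with the most reads held 18.8% of recovered reads in control replicate 2 and 6.15% in control replicate 1. In the G-CSF libraries they held 6.89% to 12.1%. The FPKM of all rows summed to 3299131 and 392646 in control replicates 1 and 2 taken in the order 2, 1, and to 586197 to 1577090 with G-CSF. The scaling factors lay within 2.65% of size factors taken from the median ratio of recovered reads. Marker lists for 11 cell types were summed in each library. Classical monocyte markers summed to 3125 to 5722 FPKM with G-CSF and to 3734 and 1400.2 FPKM in control replicates 1 and 2. Lyz2, which neutrophils and macrophages also express, made up most of that sum, with 2708 to 5146.5 FPKM with G-CSF and 3509 and 1232 FPKM in the controls. More specific monocyte markers were low in the controls: Ccr2 had 17.0 to 21.2 FPKM with G-CSF against 3.82 and 1.24 FPKM, and Vcan had 8.73 to 14.2 FPKM against 0.86 and 0.48 FPKM. None of the 10 was listed at 0 in any library. Neutrophil markers were also present, with none of 10 listed at 0 in any library. They summed to 4211 to 6459 FPKM with G-CSF and to 11248 and 2110.3 FPKM in the controls, and 10 of 10 were higher in control replicate 1 than in control replicate 2. The macrophage sum ran the other way between the controls, at 1008 to 1589 FPKM with G-CSF against 657 and 1586 FPKM. C1qb was a large part of it, with 232 and 1045 FPKM in control replicates 1 and 2. The single markers were split, and 4 of 10 were higher in control replicate 1 than in control replicate 2. In bulk RNA, fewer cells of a type and less RNA per cell cannot be told apart.

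**Figure D1:**
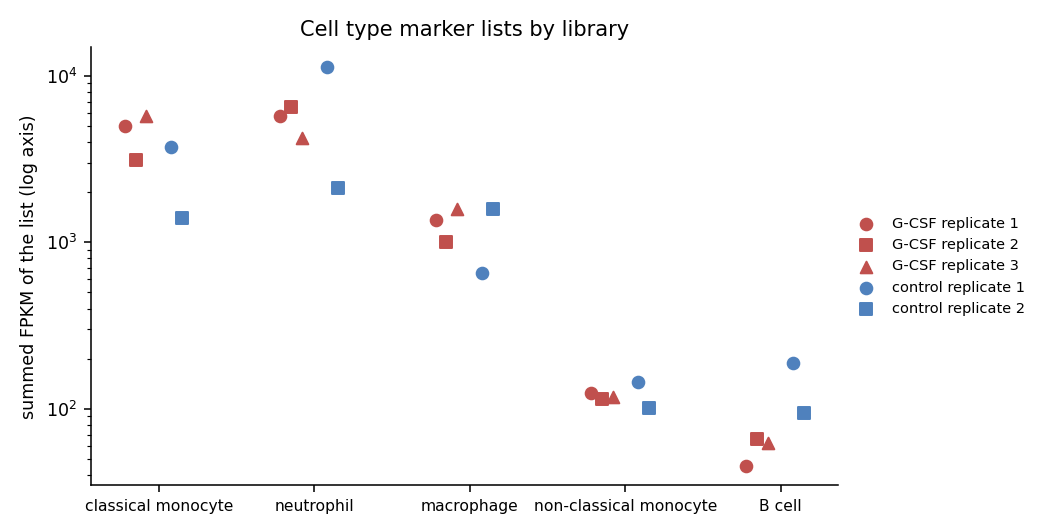
Summed FPKM (log axis) of 5 cell type marker lists in each library, 1 point per library, with G-CSF libraries in red and controls in blue. The neutrophil sums of the controls, 11248 and 2110.3 FPKM, lie on either side of all 3 G-CSF libraries (4211 to 6459 FPKM).

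The question was which of these transcripts were at another level in monocytes treated with G-CSF than in untreated ones. Of the 8 genes, 7 passed the filter of at least 1 FPKM in at least 2 libraries, and each of the 7 was above 1 FPKM in all 5 libraries. Cfb did not pass. With limma on log2(FPKM + 1), 0 of the 7 were called higher or lower at an adjusted p under 0.05 over all genes tested, where 0.00596% of 16791 genes were called higher and 0.00% lower. Restricting the test to protein-coding genes left 0 of the 7 called (background 0.285% higher and 0.0285% lower), as did voom, a limma model on the reads recovered from the FPKM steps (0.0204% and 0.0136%). At an unadjusted p under 0.05, C5ar1, Cfp and Fpr1 were higher and none of the 7 was lower, against a background of 7.90% of all genes higher and 4.76% lower. The log2 fold change was positive for 6 of the 7 and negative for C5ar2. Their median was 1.19, beside 0.08 over all genes tested. All 3 G-CSF libraries exceeded both controls for Cfp, C3ar1, C5ar1 and Fpr1 among the tested genes, where 20.0% of all genes tested did so, and no member lay below both controls in all 3 (background 11.9%). Whether a replicate is its own animal or culture is not labelled, and the p-values therefore reflect the spread of these 5 libraries, which may be technical.

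**Figure D2:**
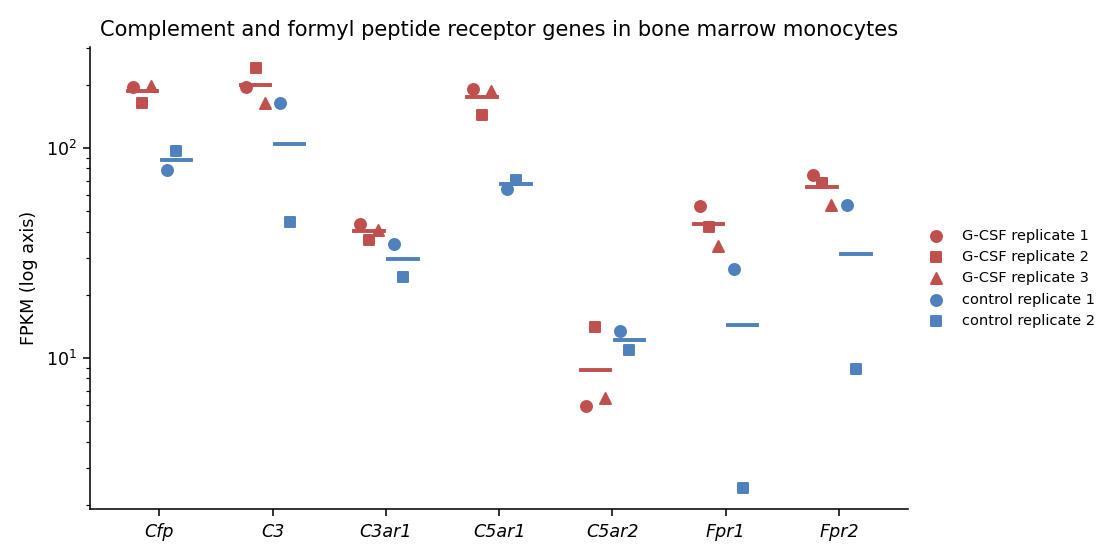
FPKM on a log axis for the 7 genes that passed the filter, 1 point per library and a line at each group mean, with G-CSF libraries (red) left of controls (blue). For Cfp and C5ar1 the 2 controls lie close together and below all G-CSF libraries, whereas for C3, Fpr1 and Fpr2 control replicate 2 lies far below control replicate 1.

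Among the factors of the alternative pathway, properdin transcripts were abundant in every library and more so with G-CSF. Cfp measured 196, 164 and 198 FPKM in G-CSF replicates 1, 2 and 3, against 78.5 and 97.2 FPKM in control replicates 1 and 2. The groups did not overlap, and the lowest G-CSF library was well above the higher control. The means were 186 ± 19.1 FPKM with G-CSF and 87.8 ± 13.2 FPKM without (SD, n = 3 and n = 2), a ratio of 2.12. Cfp had a log2 fold change of 1.08 ± 0.32 (SE), with a 95% interval of 0.29 to 1.87 and a limma adjusted p of 0.318 (unadjusted 0.0158), so Cfp did not pass. Control replicate 1 alone gave 1.23 and control replicate 2 alone 0.93. Cfp lies on the X chromosome at chrX:20925454-20931555, minus strand of GRCm38. The 250 bases before its start (chrX:20931556-20931805, minus strand, GRCm38.p6, RefSeq) are shown because Cfp is one of the genes that differed from both controls alike. They hold none of the 4 motifs searched on both strands: TTCNNNGAA for STAT factors, TTNNGCAA for C/EBP factors, GAGGAA for PU.1, and for NF-kB the letters GGG, any 2 bases and TTTCC.
Cfp: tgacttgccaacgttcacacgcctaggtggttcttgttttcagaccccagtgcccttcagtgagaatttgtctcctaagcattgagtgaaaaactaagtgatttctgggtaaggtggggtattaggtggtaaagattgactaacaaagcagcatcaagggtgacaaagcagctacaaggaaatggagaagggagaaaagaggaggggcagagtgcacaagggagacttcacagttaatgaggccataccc
Across all 32851 RefSeq windows of the same length, 7.02% held the STAT motif, 9.56% the C/EBP motif, 23.3% the PU.1 motif and 1.41% the NF-kB motif. No match says only that these letters are not in this window.

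C3, the central component of the cascade, was among the most abundant of the 8 transcripts, but its difference rested on 1 control library. It measured 196, 239.6 and 163 FPKM in G-CSF replicates 1, 2 and 3, against 163 and 44.6 FPKM in control replicates 1 and 2. G-CSF replicate 3 and control replicate 1 were nearly equal, so the groups overlapped, and control replicate 2 stood alone at the low end. Means were 199.5 ± 38.3 FPKM with G-CSF and 104 ± 84.1 FPKM without (SD, n = 3 and n = 2). Its log2 fold change of 1.19 ± 0.60 (SE; 95% interval -0.28 to 2.67) did not pass (limma adjusted p = 0.449). With control replicate 2 left out the value was 0.27, and with control replicate 1 left out it was 2.12 (adjusted p = 0.0153, where 17.7% of all genes tested were called higher and 12.4% lower). C3 lies on chromosome 17 (chr17:57203970-57228136, minus strand, GRCm38). Its RefSeq window, chr17:57228137-57228386, minus strand, is shown with the single motif match in capitals, a C/EBP match on the opposite strand from base -45 to base -38 before the start.
C3: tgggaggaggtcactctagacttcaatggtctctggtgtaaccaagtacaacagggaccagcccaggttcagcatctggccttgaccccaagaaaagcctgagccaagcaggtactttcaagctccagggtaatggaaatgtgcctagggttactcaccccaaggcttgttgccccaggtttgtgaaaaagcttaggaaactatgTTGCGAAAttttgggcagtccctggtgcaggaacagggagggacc
A match describes the letters and does not show that a factor binds there.

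Cfb transcripts were at the limit of detection. Factor B was covered by 2, 1 and 1 reads in G-CSF replicates 1, 2 and 3 (0.0824, 0.0364 and 0.0473 FPKM) and by 0 reads in both controls. A count of 0 allows up to 3 reads, equal to 0.114 FPKM in control replicate 1 and 0.306 FPKM in control replicate 2, and every G-CSF value lay below 3 reads too, so no fold change is given. These limits cover counting error only. Of the 50-base windows of Cfb transcripts in GENCODE M21, 73% also occur in the overlapping gene Gm20547, which joins the neighbouring gene C2 to Cfb, so reads there cannot be assigned to Cfb alone. C3 and Cfp, whose proteins act with factor B in the same enzyme, had no window shared with another gene.

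Of the complement receptors, C5ar1, the signalling receptor for C5a, showed the clearest separation. It measured 191, 144 and 188 FPKM in G-CSF replicates 1, 2 and 3, against 63.7 and 70.5 FPKM in control replicates 1 and 2. Both controls were close to each other and below every G-CSF library. Means were 174 ± 26.5 FPKM with G-CSF and 67.1 ± 4.80 FPKM without (SD, n = 3 and n = 2), a ratio of 2.59. C5ar1 had a log2 fold change of 1.35 ± 0.32 (SE; 95% interval 0.57 to 2.14), short of the threshold (limma adjusted p = 0.259, unadjusted 0.00573). Its size hardly depended on the control used, at 1.42 with only control replicate 1 and 1.28 with only control replicate 2. In voom without control replicate 2, an alternative added with the data in view, C5ar1 and Cfp were called higher (adjusted p = 0.0362 and 0.0397), where 1.06% of 14694 genes were called higher and 0.980% lower. Without that library, limma on protein-coding genes called 1.08% of genes higher and 0.350% lower and none of the members. The voom fit has 1 control, which is assumed to vary like the G-CSF libraries, and with all 5 libraries voom called neither (adjusted p = 0.162 and 0.230). Of the 10 classical monocyte markers, 8 also exceeded both controls in all 3 G-CSF libraries and 1 lay below both (background 20.0% and 11.9%), and the part of this in the values of C5ar1 and Cfp was not tested.

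C5ar2, the C5a receptor that does not activate G proteins, was the only tested member with a negative log2 fold change. Its levels were 5.88, 14.0 and 6.46 FPKM in G-CSF replicates 1, 2 and 3, against 13.5 and 10.9 FPKM in control replicates 1 and 2. G-CSF replicate 2 had the highest level of the 5 libraries and the other two G-CSF libraries the lowest, so the groups overlapped. Its log2 fold change was -0.52 ± 0.40 (SE; 95% interval -1.51 to 0.47; limma adjusted p = 0.586). It was -0.88 without G-CSF replicate 2 (adjusted p = 0.362) and -0.31 without G-CSF replicate 1 (adjusted p = 0.943), with -0.37, -0.38 and -0.66 on leaving out G-CSF replicate 3, control replicate 1 and control replicate 2. G-CSF replicate 2 also had the highest neutrophil marker sum of its group, 6459 FPKM beside 5739 and 4211 FPKM in G-CSF replicates 1 and 3. Its erythroid marker sum stood further apart, at 590.3 FPKM beside 75.2 and 90.2 FPKM. The part of either sum in the C5ar2 value was not tested. C5ar1 and C5ar2 are neighbours on the minus strand of chromosome 7, at chr7:16246743-16259540 and chr7:16234585-16244154 in GRCm38, with 2589 bases between them. The window before the first C5ar2 start held 2 C/EBP matches. The window before a second C5ar2 start in RefSeq held 1 PU.1 match and none of the other motifs. That second window lies wholly inside the C5ar2 gene of GENCODE M21. The window before C5ar1 held none of the 4 motifs, although GENCODE M21 places 202 of its 250 bases inside the C5ar1 gene. Of the 50-base windows of C5ar2 transcripts, 4.39% also occur in other genes, against none for C5ar1 and C3ar1.

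C3ar1, the C3a receptor, had a positive estimate with an interval that included 0. It measured 43.6, 36.3 and 40.8 FPKM in G-CSF replicates 1, 2 and 3, against 34.9 and 24.3 FPKM in control replicates 1 and 2. The groups did not overlap, but control replicate 1 was only just below G-CSF replicate 2. Means were 40.2 ± 3.70 FPKM with G-CSF and 29.6 ± 7.51 FPKM without (SD, n = 3 and n = 2). Its log2 fold change of 0.45 ± 0.29 (SE; 95% interval -0.26 to 1.16) did not pass (limma adjusted p = 0.519), and the estimate was 0.20 with only control replicate 1 and 0.70 with only control replicate 2. Its promoter window held 1 NF-kB match. C3ar1 lies at chr6:122847138-122856161 on the minus strand of GRCm38.

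**Figure D3:**
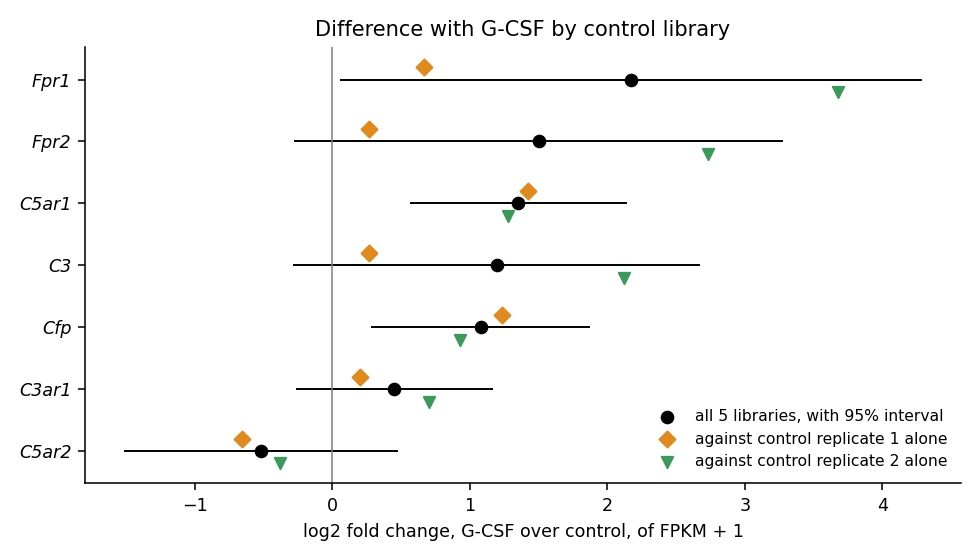
Log2 fold change of FPKM + 1, G-CSF over control, for the 7 tested genes. Black points with bars are the limma estimates and 95% intervals from all 5 libraries, and coloured points are estimates with 1 control left. For C5ar1 and Cfp the coloured points lie close to the black ones, whereas for Fpr1 they are 0.66 and 3.68.

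Both formyl peptide receptors had reads in all libraries and were far lower in control replicate 2 than in any other library. Fpr1 measured 53.2, 42.2 and 34.3 FPKM in G-CSF replicates 1, 2 and 3, against 26.5 and 2.40 FPKM in control replicates 1 and 2. All G-CSF libraries lay above both controls, and control replicate 2 was 11.1-fold below control replicate 1. The lowest value came from 11 reads, with an exact Poisson 95% interval of 1.20 to 4.29 FPKM that covers counting error only. Its log2 fold change was the largest of the 7, at 2.17 ± 0.86 (SE; 95% interval 0.06 to 4.28), and did not pass (limma adjusted p = 0.384). Keeping only control replicate 1 gave 0.66, and keeping only control replicate 2 gave 3.68.

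Fpr2 was higher than Fpr1 in every library. It measured 74.6, 68.5 and 53.5 FPKM in G-CSF replicates 1, 2 and 3, against 53.8 and 8.90 FPKM in control replicates 1 and 2. G-CSF replicate 3 was just below control replicate 1, so the groups overlapped. Fpr2 had a log2 fold change of 1.50 ± 0.72 (SE, 95% interval -0.27 to 3.27, limma adjusted p = 0.440). The estimate was 0.27 when only control replicate 1 was kept and 2.73 when only control replicate 2 was kept. For Fpr1, Fpr2 and C3, the gap between the controls on the log2 scale, 3.02, 2.47 and 1.85 (control replicate 1 minus control replicate 2), was larger than for 99.5%, 98.6% and 96.1% of all genes tested, counted with sign. The neutrophil marker sum differed between the same controls by 5.33-fold in the same direction, and the part of this in the values of Fpr1, Fpr2 and C3 was not tested. For C5ar1 and Cfp the gap was -0.14 and -0.30, with control replicate 2 the higher.

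Fpr1 and Fpr2 are neighbours that point away from each other on chromosome 17, at chr17:17876471-17883940 on the minus strand and chr17:17887824-17893952 on the plus strand of GRCm38, with 3884 bases between their starts. Their windows (chr17:17883940-17884189 on the minus strand and chr17:17887574-17887823 on the plus strand, GRCm38.p6, RefSeq) are shown because both genes were lowest in control replicate 2. Capitals mark motif matches, which were found for Fpr2 only: a STAT match from base -77 to base -69, and a PU.1 match on the opposite strand from base -19 to base -14.
Fpr1: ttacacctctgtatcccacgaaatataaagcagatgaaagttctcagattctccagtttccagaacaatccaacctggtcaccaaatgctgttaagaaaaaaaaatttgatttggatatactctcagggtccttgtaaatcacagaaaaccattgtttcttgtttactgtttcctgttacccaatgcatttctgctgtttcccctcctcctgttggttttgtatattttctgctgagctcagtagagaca
Fpr2: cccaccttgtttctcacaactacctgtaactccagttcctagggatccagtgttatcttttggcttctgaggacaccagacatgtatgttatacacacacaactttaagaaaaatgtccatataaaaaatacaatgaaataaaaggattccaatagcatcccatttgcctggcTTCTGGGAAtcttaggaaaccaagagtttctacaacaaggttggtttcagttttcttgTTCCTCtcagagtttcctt
Of the 50-base windows of Fpr2 transcripts, 31.5% also occur in Fpr3, Fpr1 or the annotated gene Gm5966, so part of the Fpr2 reads may have been shared or dropped by the authors' counting. For Fpr1 the share was 0.0784%. Fpr3, a close relative whose annotated gene overlaps Fpr2, was listed at 0.183, 0.0811 and 0 FPKM with G-CSF and at 0 in both controls. Fpr-rs3 was listed at 0 in all libraries but control replicate 2, where it had 0.56 FPKM.

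Plain FPKM ratios of 2 receptors within 1 library do not depend on the scaling between libraries. Adding 1 to each FPKM, as in the log2 values tested below, brings back some dependence. C5ar1 exceeded C5ar2 by 32.5-fold, 10.3-fold and 29.1-fold in G-CSF replicates 1, 2 and 3, and by 4.73-fold and 6.45-fold in control replicates 1 and 2. Every G-CSF library had the higher ratio. On the log2 scale, with 1 added to each FPKM, the ratio averaged 4.24 ± 0.85 with G-CSF and 2.37 ± 0.30 without (SD, n = 3 and n = 2), a difference of 1.87 (exact permutation test, two-sided p = 0.2, adjusted 0.267 over 4 ratios). A p of 0.2 is the smallest that 3 against 2 libraries can give, so no ratio could pass. C3ar1 relative to C5ar1 was 0.229, 0.253 and 0.217 with G-CSF and 0.548 and 0.344 in the controls, with no overlap (log2 difference -0.90, exact permutation p = 0.2, adjusted 0.267). Fpr2 relative to Fpr1 was 1.40, 1.62 and 1.56 with G-CSF and 2.03 and 3.71 in the controls, also without overlap (log2 difference -0.67, exact permutation p = 0.2, adjusted 0.267). The log2 difference was -0.58 for C3ar1 over C5ar1 when control replicate 1 was left out. For Fpr2 over Fpr1 it was -0.40 when control replicate 2 was left out and -0.35 with a pseudocount of 5. Fpr2 over Fpr1 was measured on 40 reads of Fpr2 and 11 reads of Fpr1 in control replicate 2. For Cfb relative to C3 the log2 difference was -1.12 (exact permutation p = 0.4, adjusted 0.4), and it carries little beyond the level of C3, since Cfb was at or near 0. It was -0.19 when control replicate 2 was left out, -2.04 when control replicate 1 was left out and -0.58 with a pseudocount of 0.1.

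**Figure D4:**
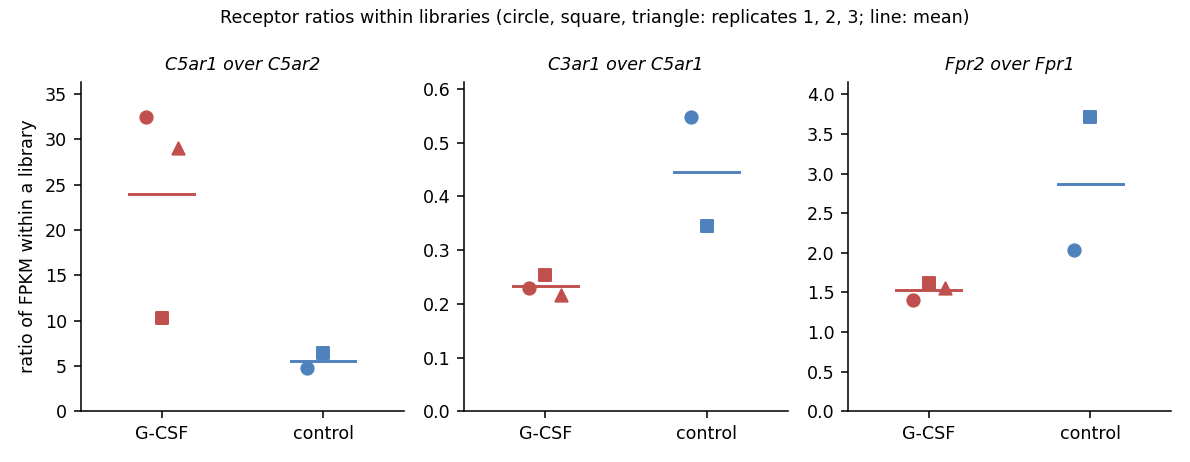
Ratio of FPKM of 2 receptors within each library, 1 point per library and a line at the group mean, G-CSF (red) left of control (blue). For C5ar1 over C5ar2 the G-CSF libraries lie between 10.3 and 32.5, above the controls at 4.73 and 6.45, and for the other two pairs they lie below both controls.

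With G-CSF, C3, Cfp and C5ar1 were the most abundant of the 8 transcripts at means of 199.5, 186 and 174 FPKM, and their ranges over libraries overlapped. Cfp was above C5ar1 in every library, whereas the place of C3 changed between libraries and was not resolved. Fpr2 came next at 65.5 ± 10.8 FPKM (SD, n = 3), above Fpr1 in every library. Fpr1 and C3ar1, at 43.2 ± 9.50 and 40.2 ± 3.70 FPKM (SD, n = 3), overlapped in range. C5ar2 was lowest of the tested genes at 8.77 ± 4.52 FPKM (SD, n = 3). The order differed between the controls: in control replicate 1 it was C3, Cfp, C5ar1, Fpr2, C3ar1, Fpr1 and C5ar2 from the highest, and in control replicate 2 it was Cfp, C5ar1, C3, C3ar1, C5ar2, Fpr2 and Fpr1. Among all genes tested, mean levels over the 5 libraries ranged from the 73.4th percentile for C5ar2 to the 98.5th for C3.

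The genes with the most similar pattern were found by the root mean square difference of log2(FPKM + 1) over the 5 libraries, each gene centred on its own mean, among 6028 named genes with a mean of at least 5 FPKM. Likeness over 5 libraries says nothing of shared function. For C5ar1 these were App, the amyloid precursor protein gene, at 0.06, and a gene listed only as ENSMUSG00000121068, at 0.08. For Cfp they were Ikbke, a kinase of innate immune signalling, and Zfp36, which promotes decay of cytokine mRNAs, both at 0.07. Fpr1 had the fewest close neighbours, with only Mmp8, the neutrophil collagenase gene and one of the neutrophil markers, within 0.2, followed by Ifitm6 at 0.28. Mmp8 measured 226, 259 and 163 FPKM in the G-CSF libraries, against 159 and 17.0 FPKM in control replicates 1 and 2, so it too was low in control replicate 2. For Fpr2 they were the cytokine gene Il36g at 0.11 and the myeloid lectin gene Clec5a at 0.12. C3 was nearest to Eif4ebp1 (0.08) and the ubiquitin gene Ubb (0.09), C5ar2 to Il17c (0.07) and Dennd3 (0.11), and C3ar1 to genes that included Rbbp5 (0.02). C3ar1 varied so little that 978 genes lay within 0.2 of it.

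The rest of the complement system was then read from lists. No member of any list below passed the adjustment over all genes, and unadjusted counts are set against the backgrounds of 7.90% higher and 4.76% lower. Of 17 classical and lectin pathway genes 7 were tested, and none reached an unadjusted p under 0.05, with 3 of 7 log2 fold changes positive and a median of -0.07. With control replicate 2 left out, 5 of 7 were positive, 1 was higher at an unadjusted p under 0.05 (background 11.2%) and the median was 0.59, so the direction of this list turned on that library. C1qb, a chain of the first complement component, was the most abundant at 422, 358 and 553 FPKM in the G-CSF libraries, against 232 and 1045 FPKM in control replicates 1 and 2. C1qa had 203, 109 and 299.7 FPKM with G-CSF against 39.2 and 112 FPKM in the controls, which gave 1.49 ± 0.63 on the log2 scale (SE; adjusted p = 0.407 in limma). C1qc and the protease gene C1ra had log2 fold changes of 0.41 and 0.62, the lectin gene Fcna had -0.59 and C1qb had -0.17. In the absence of control replicate 2 the values were 1.03 for C1qc, 0.38 for C1ra, 0.59 for Fcna, 0.91 for C1qb and 2.23 for C1qa. The C1q genes are also in the macrophage marker list and made up much of its sum. C1qb alone had 232 and 1045 FPKM of the 657 and 1586 FPKM in control replicates 1 and 2. The gap in that sum between the controls is therefore no separate reading. In the alternative pathway, C3 and Cfp were the only tested genes of 6. C4a and C4b were below 1 FPKM in every library, as were the genes of the terminal pathway in the table (4 of the 7 listed), including Hc, which encodes C5, apart from C8g (log2 fold change -0.12).

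Complement regulators and the remaining receptors had estimates on both sides of 0. Of 15 regulators 6 were tested, 2 of 6 log2 fold changes were positive, and the median was -0.06. Clu, Cr1l and the carboxypeptidase gene Cpm had log2 fold changes of -0.24, 0.32 and -0.60. Leaving out control replicate 2 gave 0.03 for Clu and -0.02 for Cr1l, both of the opposite sign, and -1.34 for Cpm, while the median of the regulators was -0.16. Of 10 complement receptors 8 were tested, with 5 positive and a median of 0.30, and at an unadjusted p under 0.05 C5ar1 was higher and Itgax lower. Once control replicate 2 was left out the median was 0.10, 2 were higher and 0 lower at that threshold (background 11.2% and 7.30%), and Itgax was no longer among them. Itgb2, the shared beta chain of complement receptors 3 and 4, was the most abundant at 259 to 285 FPKM with G-CSF against 267 and 202 FPKM (log2 fold change 0.21, and 0.01 if control replicate 2 is left out). Its partner Itgam, the alpha chain of complement receptor 3, had 29.8, 25.9 and 28.3 FPKM with G-CSF against 23.8 and 10.3 FPKM (log2 fold change 0.79, limma adjusted p = 0.442; 0.22 if control replicate 2 is left out). Itgax, the alpha chain of complement receptor 4, had 13.1, 8.86 and 9.96 FPKM with G-CSF against 14.7 and 26.6 FPKM (log2 fold change -0.86, limma adjusted p = 0.387; -0.45 if control replicate 2 is left out).

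The formyl peptide receptor family had 7 listed genes, of which only Fpr1 and Fpr2 were tested. Most ligands of these receptors and other chemoattractant receptors had positive estimates. Of 11 genes 10 were tested, at an unadjusted p under 0.05 there were 5 higher and 1 lower, 9 of 10 were positive and the median was 1.41. Without control replicate 2 the median was 0.56, with 5 higher and 1 lower (background 11.2% and 7.30%). Saa3, a serum amyloid A gene, had the largest log2 fold change, 6.80 ± 0.69 (SE, limma adjusted p = 0.107). Its levels were 328, 88.0 and 359 FPKM with G-CSF against 0.45 and 1.66 FPKM in the controls. The chemerin receptors Cmklr1 and Ccrl2 had 1.64 ± 0.40 and 1.90 ± 0.38 (SE; limma adjusted p = 0.267 and 0.248), and App had 1.33 ± 0.30 (SE; adjusted p = 0.258). Camp, encoding the cathelicidin peptide that also acts on Fpr2, was the 1 lower gene and the most abundant by the mean over the 5 libraries. Camp had 86.1, 208 and 66.8 FPKM with G-CSF against 1187 and 402 FPKM in the controls (log2 fold change -2.69 ± 0.70, SE, limma adjusted p = 0.286). It is also a neutrophil marker. Cxcr2, the chemokine receptor deleted in the KO skin samples, had a log2 fold change of 1.50, which was 0.39 without control replicate 2.

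The signalling proteins downstream of these receptors had estimates on both sides of 0. Of 19 genes for G proteins, their effectors, arrestins and receptor kinases, all were tested, at an unadjusted p under 0.05 there were 2 higher and 1 lower, 11 of 19 were positive and the median was 0.28. The median was -0.15 without control replicate 2, so the direction of the list depended on that library. Gnai2, the inhibitory G protein alpha subunit used by chemoattractant receptors, was the most abundant by the mean over the 5 libraries. It had 195, 211 and 203 FPKM with G-CSF against 145 and 111 FPKM in the controls (log2 fold change 0.67, limma adjusted p = 0.442). Gnb1 and Pik3r5, a regulatory subunit of phosphoinositide 3-kinase gamma, had log2 fold changes of 0.79 and 0.61. Plcb2, a phospholipase C activated by G proteins, had 17.9, 21.8 and 16.9 FPKM with G-CSF against 37.9 and 33.3 FPKM (log2 fold change -0.89 ± 0.26, SE; limma adjusted p = 0.314).

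**Figure D5:**
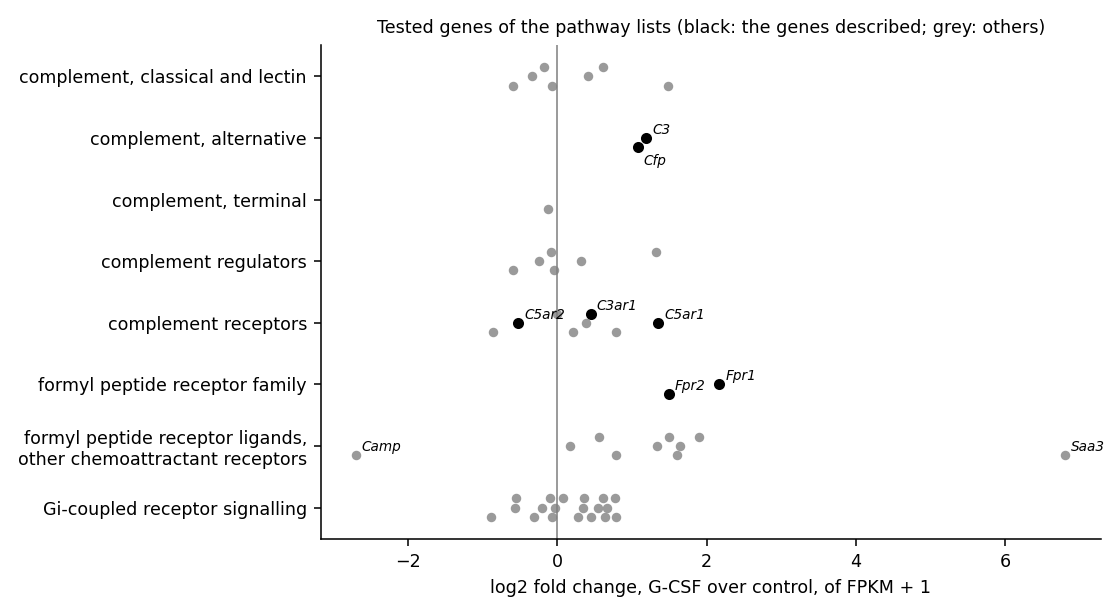
Log2 fold change of FPKM + 1, G-CSF over control, for each tested gene of 8 lists, 1 point per gene, with the genes described here in black. C5ar1 at 1.35 and C5ar2 at -0.52 lie on opposite sides of 0, and Saa3 at 6.80 and Camp at -2.69 mark the ends of the ligand list.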

How the data were processed

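Bulk RNA-seq libraries of bone marrow monocytes were read from 1 table, with groups from the labels. The authors deposited FPKM per gene, 1 column per library. Per the submitters' processing notes the genome build was mm10, and the notes name only Cell Ranger 5.0.1, a single-cell tool. For the bulk libraries, aligner, counter, annotation and strandedness are not given in the sources used here. Genes with at least 1 FPKM in at least 2 libraries (16791) were tested on log2(FPKM + 1) with limma 3.58.1 in R 4.3.3 (trended empirical Bayes, two-sided, Benjamini-Hochberg over all genes, threshold 0.05). Adding 1 makes fold changes of low genes too small.

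FPKM times exon length in GENCODE M21 (GRCm38) was a whole multiple of 1 step per library (tolerance 0.001 reads, growing in proportion above 1000 reads) for 94.3% of the matched rows, counting rows whole in all 5. By symbol, 89.6% of rows matched. The resulting reads are a lower bound of depth. Gene coordinates were looked up by symbol in GENCODE M21. RefSeq promoter windows matched 7 of 8 genes.

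Python 3.11.15, scipy 1.17.1 and matplotlib 3.10.9 were used for ratios and plots. The fit was tested on simulated data. The genes, lists, motifs and alternatives were chosen with earlier results of these data known. From each list, up to 4 genes with the smallest p are named, and the most abundant gene by mean FPKM over the 5 libraries. For each tested member the 2 genes nearest in pattern are named. Results for a few genes that these rules pick are not reported here. Other genes named, such as C4a, Hc, Fpr3 and Cxcr2, were chosen after their values were seen. Alternatives were other pseudocounts, filters, normalizations and limma settings, protein-coding genes only, voom on recovered reads, a replicate block and leaving out each library.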

Additional observations from a re-analysis of the deposited data

How the results depend on the processing

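Directions of the 7 tested genes held in all alternatives run, 126 estimates in all. Estimates passed the threshold only in fits with 1 control left, where the spread comes from the G-CSF libraries alone. With all 5 libraries limma called 1 gene higher and 0 lower, against 1327 and 800 at an unadjusted p under 0.05. Higher calls numbered 3 with a pseudocount of 0.1, 2 with a minimum of 5 FPKM, 2 without trend, 30 with protein-coding genes only and 3 with voom. They numbered 0 with a pseudocount of 5, no filter, quantile normalization, median centring or the replicate block. Lower calls numbered 3 with protein-coding genes only and 2 with voom. Leaving out 1 library gave 0 to 2834 higher calls, 0 to 1977 lower calls and 0 to 4 called members, the highest each time without control replicate 1. Without control replicate 2, protein-coding genes only gave 111 higher and 36 lower calls, and voom gave 156 and 144, with 2 members called (C5ar1 and Cfp). Both of these were chosen after the data were seen. The cause of these shifts was not tested.

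Replicate numbers are not stated to pair libraries. Deviations from the group means correlated at -0.0706 for the libraries numbered 1 and -0.231 for those numbered 2 across genes. With 2 controls, the deviations of each are the mirror image of the other's, so these values cannot decide whether libraries are paired. The replicate block left 0 members called. A planned quasi-likelihood count test on the recovered reads was not run, and voom was run on them in its place. With 2 controls, of which 1 was shallower, the data cannot separate the group from the control library for C3, Fpr1 and Fpr2.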

Other observations

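Markers of other cell types were summed in the same way. Non-classical monocyte markers summed to 114 to 124 FPKM with G-CSF and to 145 and 102 FPKM in control replicates 1 and 2. B cell markers summed to 45.6 to 65.7 FPKM with G-CSF and to 189.6 and 94.2 FPKM in the controls. Eosinophil, basophil and mast cell markers summed to 98.4 to 133 FPKM against 218 and 331 FPKM, and megakaryocyte and platelet markers to 356 to 568 FPKM against 292 and 811 FPKM. Erythroid markers summed to 75.2, 590.3 and 90.2 FPKM in G-CSF replicates 1, 2 and 3 and to 1027 and 301 FPKM in the controls. Dendritic cell markers summed to 6.53 to 8.38 FPKM in the G-CSF libraries, against 20.6 and 9.88 FPKM, T and NK cell markers to 8.07 to 12.3 FPKM against 6.76 and 3.33 FPKM, and stromal markers to 0.986 to 1.24 FPKM against 6.56 and 21.7 FPKM.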
